A study of Mus musculus with 141 samples.

Results

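The 9 genes described here, *Lpl*, *Cd36*, *Gpihbp1*, *Angptl4*, *Fabp4*, *Fabp5*, *Vldlr*, *Slc27a1* and *Lmf1*, act in the uptake of fatty acids by adipose tissue and in their binding inside the cell. They were taken by name and make up 9 of the 36558 genes in the tables. All 9 passed the filter on low counts in every comparison.

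Lipoprotein lipase splits the triglyceride of circulating lipoproteins at the wall of the capillary. Its supply of fatty acids to a fat depot depends on the chaperone that lets it fold (LMF1), on the endothelial protein that carries and anchors it (GPIHBP1), on an inhibitor that rises with fasting (ANGPTL4) and on receptors that hold lipoproteins nearby (VLDLR). The released fatty acids enter the adipocyte with the help of CD36 and of fatty acid transport protein FATP1, the product of *Slc27a1*, and are bound in the cytosol by FABP4 and FABP5.

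RNA was sequenced from the subcutaneous, inguinal white adipose tissue (iWAT) of inbred and recombinant inbred mice that belong to the Hybrid Mouse Diversity Panel (HMDP). All animals, female and male, ate food rich in fat and sucrose (HF/HS), starting at 8 weeks of age and lasting 8 weeks, and had no food in the 4 h before tissue collection, so no group on another diet was available for comparison. There were 67 female and 74 male libraries from 82 strains, 1 for each strain and sex, and 59 strains had both. The strains were 24 inbred strains (21 female and 23 male libraries), 11 AXB/BXA strains derived from A/J and C57BL/6J (9 and 11), 40 BXD strains derived from C57BL/6J and DBA/2J (32 and 34), 4 BXH strains derived from C57BL/6J and C3H/HeJ (2 and 3) and 3 CXB strains derived from BALB/c and C57BL/6 mice (3 and 3). Some strains carry a named mutation besides their background, among them BXD24/TyJ-Cep290<rd16>/J and BTBR T<+> tf/J. A strain therefore had no replicate within a sex, and the labels do not say how many animals went into a library.

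Library totals ran from 6269154 to 78562648 estimated counts, with a median of 30233245, and mitochondrially encoded genes took 3.99% to 29.9% of them. In 3 libraries the summed level of 4 Y-linked genes went against the sex label: 2 labelled female (BXD34/TyJ and BXD69/RwwJ, neither in the matched set) and 1 labelled male (NZW/LacJ, in the matched set). BXD34/TyJ was also the shallowest library, and held the lowest TPM of all 9 genes among the libraries labelled female. Adipocyte markers were present in every library: the summed level of *Adipoq*, *Plin1*, *Plin4*, *Cidec*, *Lep* and *Retn* had a median of 7871 CPM (counts relative to the scaled library total) in females and 12532 CPM in males. Lymphocyte markers exceeded 100 CPM in 32 female and 31 male libraries, and skeletal muscle markers exceeded 1000 CPM in 4.

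Levels of different genes were compared in TPM, a transcript's abundance corrected for its length and scaled to the same total in every library. *Fabp4* (chr3:10204088-10208576), the adipocyte fatty acid binding protein, was the most abundant of the 9, with a lowest, median and highest level of 4586, 26331 and 53867 TPM in females and 10132, 35185 and 57626 TPM in males. It was the single most abundant gene of all in 56 of all libraries. *Lpl* (chr8:68880491-68907448) followed, with 507, 3530 and 8161 TPM in females and 1340, 5013 and 8135 TPM in males. *Cd36* (chr5:17781690-17888801) stood at 208, 2174 and 4390 TPM in females and 891, 3278 and 5977 TPM in males. The order *Fabp4*, *Lpl*, *Cd36* held in all 67 female libraries, and *Lpl* exceeded *Cd36* in 73 of 74 male libraries. Together the 9 genes made up a median of 3.38% of all TPM in females and 4.47% in males.

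The next 4 genes lay lower. *Fabp5* (chr3:10012548-10016607), the epidermal fatty acid binding protein, stood at 55.7, 261 and 882 TPM in females and 94.3, 357 and 891 TPM in males. *Angptl4* (chr17:33773750-33781830) stood at 13.9, 199 and 461 TPM in females and 73.3, 309 and 487 TPM in males. *Slc27a1* (chr8:71568882-71587302) stood at 18.7, 185 and 463 TPM in females and 60.9, 156 and 340 TPM in males. These neighbours were not separated by their spread: *Fabp5* exceeded *Angptl4* in 51 of 67 female and 49 of 74 male libraries, and *Angptl4* exceeded *Slc27a1* in 34 of 67 female libraries. *Gpihbp1* (chr15:75596628-75599481) stood at 6.77, 127.6 and 294 TPM in females and 51.1, 158 and 279 TPM in males. In males it could not be ranked against *Slc27a1*, being the higher of the pair in 37 of 74 libraries.

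The least abundant members were the receptor and the chaperone. *Vldlr* (chr19:27216484-27254231) stood at 4.43, 26.2 and 105.2 TPM in females and 12.2, 43.1 and 116.4 TPM in males. *Lmf1* (chr17:25579085-25662826) stood at 4.57, 11.5 and 16.5 TPM in females and 5.81, 10.6 and 18.2 TPM in males. *Lmf1* also varied least, with a coefficient of variation over female libraries of 19.2%, against 69.5% for *Vldlr* and 58.3% for *Fabp5*. The low levels of BXD34/TyJ depended on the measure. In CPM its *Lmf1* was the highest of the female libraries (34.9 CPM), while its *Gpihbp1* was still the lowest (16.3 CPM). Without BXD34/TyJ, the lowest female level rose to 745 TPM for *Lpl*, 499 TPM for *Cd36*, 37.6 TPM for *Gpihbp1*, 59.9 TPM for *Angptl4*, 5595 TPM for *Fabp4*, 90.8 TPM for *Fabp5*, 79.1 TPM for *Slc27a1*, 8.48 TPM for *Lmf1* and 4.79 TPM for *Vldlr*. Without NZW/LacJ, the lowest male level rose to 1369.7 TPM for *Cd36*, 121.8 TPM for *Angptl4* and 16356 TPM for *Fabp4*.

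**Figure D1:**
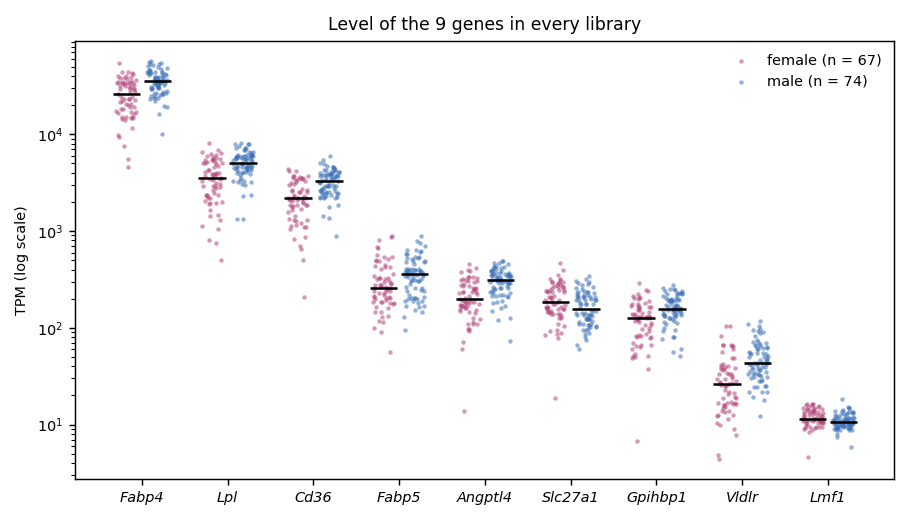
TPM (log scale) of the 9 genes in the 67 female and 74 male libraries; each point is 1 library and each bar the median. *Fabp4*, *Lpl* and *Cd36* stand above the other 6 genes, and the male median is the higher for all but *Slc27a1* and *Lmf1*.

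The sequence of *Fabp5* is shown here because the annotation holds a processed pseudogene, *Gm6166*, nearly identical to its coding sequence, so that reads common to both cannot be assigned with certainty. The coding sequence of *Fabp5* lies in 4 exons (chr3:10012640-10016117, plus strand, GRCm38), and *Gm6166* is a single intronless copy on another chromosome (chr9:57483963-57484371, plus strand, GRCm38). Over 409 aligned bases they were 98.3% identical, with 5 mismatches and 2 inserted bases. The stretch with 4 of the 5 mismatches and both inserted bases is shown 5′ to 3′ as in the GENCODE mouse release 21 transcripts, *Fabp5* from base 174 to base 407 of its 408-base coding sequence and *Gm6166* at chr9:57484136-57484371, with the bases that differ or are inserted in capitals.
Fabp5: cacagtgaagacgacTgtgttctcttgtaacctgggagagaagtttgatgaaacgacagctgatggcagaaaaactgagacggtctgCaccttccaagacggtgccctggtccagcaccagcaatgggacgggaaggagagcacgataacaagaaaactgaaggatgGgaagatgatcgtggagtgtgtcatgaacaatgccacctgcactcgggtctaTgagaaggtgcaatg
Gm6166: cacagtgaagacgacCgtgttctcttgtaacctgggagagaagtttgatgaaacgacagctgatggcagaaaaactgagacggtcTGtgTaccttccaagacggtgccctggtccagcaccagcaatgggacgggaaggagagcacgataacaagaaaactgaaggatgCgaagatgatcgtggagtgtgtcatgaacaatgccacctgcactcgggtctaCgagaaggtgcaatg

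The reads assigned to *Gm6166* divided the libraries into distinct sets. As a share of the counts of *Fabp5* and *Gm6166* together, *Gm6166* took less than 5% in 61 libraries, at most 0.538%, and between 16.8% and 34.3%, with a median of 29.7%, in the other 80, and no library lay between. In all 59 strains with both sexes, the female and the male library fell in the same set. C57BL/6J, the strain of the reference genome, had 2 counts of *Gm6166* beside 6695 of *Fabp5* in the female library, a share of 0.0299% (95% exact binomial interval 0.00362% to 0.108%), and 2 beside 8213 in the male library. DBA/2J had a share of 29.3% (28.2% to 30.3%) in the female and 32.1% (31.3% to 33.03%) in the male library, and A/J, C3H/HeJ and BALB/cJ lay between 25.6% and 31.9%. These intervals cover counting error only. Among the recombinant strains, 33 BXD libraries lay in the low and 33 in the high set, the AXB/BXA libraries divided 14 to 6, the CXB libraries 2 to 4, and all 5 BXH libraries lay in the low set.

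The level of *Fabp5* itself moved with this split. Median *Fabp5* was 242 CPM in the 28 female libraries of the low set and 127.2 CPM in the 39 of the high set, and 282 CPM in 33 and 178 CPM in 41 male libraries. With the counts of both genes added, the medians of the high set became 180 CPM in females and 241 CPM in males, nearer to those of the low set. These sets were formed from the data, so the values are a description. Which of the 2 loci the reads of the high set came from cannot be told apart from these tables, and the strain test of *Fabp5*, its contrast between BXD and inbred females and its correlations between the sexes and with *Fabp4* are therefore given below also with *Gm6166* and another processed copy of very low level added. No other member had a match of at least 95% identity over at least 200 bases to the transcript of another gene.

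**Figure D2:**
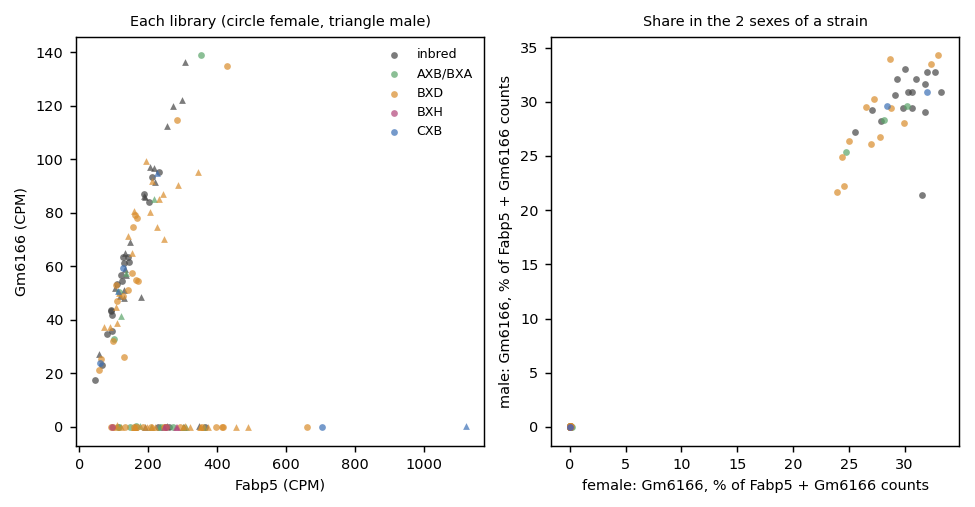
Left, *Gm6166* against *Fabp5* (CPM) in each library, coloured by strain family; right, the share of *Gm6166* in the counts of both genes in the female and the male library of each of 59 strains. The 61 libraries at the bottom hold at most 0.538% and the other 80 between 16.8% and 34.3%, and both sexes of a strain always fall in the same set.

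The main comparison of the study was that of the sexes. Each female library was set against the male library of its strain in 59 strains, in CPM scaled by TMM, a normalization that sets aside genes of extreme difference. Of the 9 genes, 7 were lower in females (adjusted p under 0.05 by edgeR's quasi-likelihood test), against a background of 29.8% of the 16765 genes tested that were lower, 28.4% that were higher and 58.1% that passed in either direction. The 7 were lower together in the female library of 33 of 59 strains. *Slc27a1* and *Lmf1* did not pass the test. The lowest male level in CPM of each of the 7 was that of NZW/LacJ, the library that went against its label. In whole tissue, fewer cells of a type and less RNA per cell cannot be told apart.

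Among the genes of the lipase itself, *Lpl* had a lowest, median and highest level of 1675, 8179 and 21826 CPM in females and 3248, 12866 and 24982 CPM in males. The ranges overlapped, and 48 of 59 female libraries were under the male median. Under the lowest male library were 4 of 59 female libraries, or 11 of 58 without NZW/LacJ. The log2 fold change (log2FC) of *Lpl* was -0.59 (SE 0.118, adjusted p = 2.29e-05), 0.66-fold, with the female library lower in 48 of 59 strains. *Gpihbp1*, which anchors the enzyme on the endothelium, stood at 18.9, 67.7 and 156 CPM in females and 29.9, 98.9 and 159 CPM in males. Its ranges overlapped almost fully, and its log2FC was -0.50 (SE 0.0845, adjusted p = 1.16e-06), lower in 45 of 59 strains. *Angptl4*, the inhibitor, stood at 73.6, 287 and 564 CPM in females and 99.8, 458 and 755 CPM in males. It was lower in females as well, with 14 male libraries over the highest female one and a log2FC of -0.64 (SE 0.096, adjusted p = 8.55e-08, 50 of 59 strains). For *Angptl4*, 1 of 59 female libraries was under the lowest male one, or 16 of 58 without NZW/LacJ. *Lmf1*, the chaperone, had similar medians of 15.3 CPM in females and 14.97 CPM in males. Its log2FC was 0.04 (SE 0.0464, 95% interval -0.05 to 0.14, adjusted p = 0.417).

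Among receptors and transporters, *Vldlr* had the largest difference of the 9 genes. It stood at 18.1, 104.9 and 290 CPM in females and 57.6, 176 and 323 CPM in males, and 10 of 59 female libraries were under the lowest male library, or 20 of 58 without NZW/LacJ. Its log2FC was -0.74 (SE 0.108, adjusted p = 4.02e-08), 0.60-fold, lower in 50 of 59 strains. *Cd36* stood at 678, 3369 and 6011 CPM in females and 1372, 5496 and 8657 CPM in males. The upper ends of the ranges separated most for this gene, with 23 of 59 male libraries over the highest female one. At the lower end, 4 of 59 female libraries were under the lowest male one. Without NZW/LacJ it was 25 of 58, the most of the 9 genes. Its log2FC was -0.68 (SE 0.105, adjusted p = 1.57e-07, 51 of 59 strains). *Slc27a1* stood at 96.1, 263 and 649 CPM in females and 88.3, 249 and 525 CPM in males, with the female library higher in 41 of 59 strains. The log2FC of *Slc27a1* was 0.17 (SE 0.0881, 95% interval 0.00 to 0.35, adjusted p = 0.0872).

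Both cytosolic binding proteins were lower in females. *Fabp4* stood at 2090, 10536 and 26116 CPM in females and 4566, 14163 and 30844 CPM in males. Its ranges overlapped, with 4 female libraries under the lowest male one, or 13 without NZW/LacJ, and its log2FC was -0.53 (SE 0.104, adjusted p = 1.65e-05, 47 of 59 strains). *Fabp5* stood at 45.3, 147 and 706 CPM in females and 56.3, 198 and 1122 CPM in males. The difference of *Fabp5* was the smallest of the 7, at -0.30 (SE 0.103, adjusted p = 0.0111, 42 of 59 strains), and was the same at -0.30 (adjusted p = 0.0103) with its copies added.

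**Figure D3:**
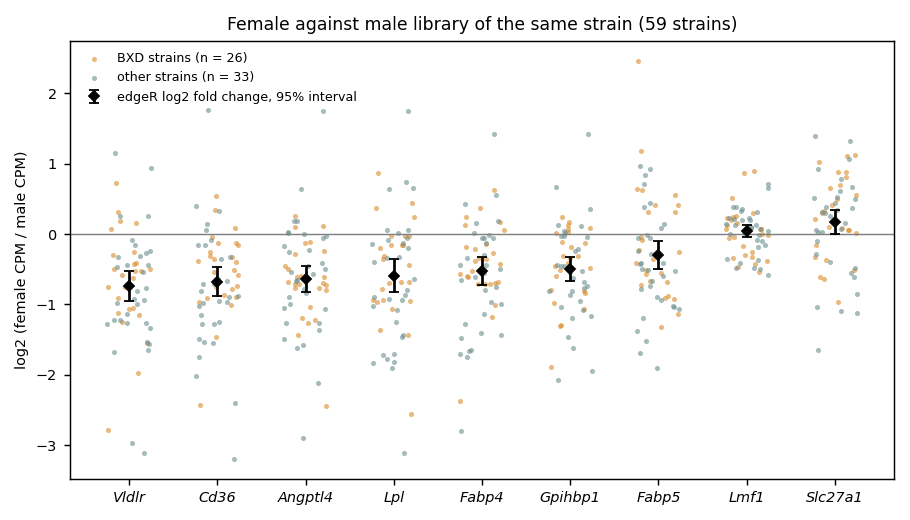
Log2 ratio of the female to the male library (CPM) in each of 59 strains for the 9 genes, with the edgeR log2FC and its 95% interval as black diamonds. *Vldlr*, *Cd36*, *Angptl4*, *Lpl*, *Fabp4*, *Gpihbp1* and *Fabp5* lie below 0, and the intervals of *Lmf1* and *Slc27a1* reach 0.

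Scaling decided the calls of both genes outside the 7. With library totals in place of TMM, which moved the median log2FC of all genes from 0.01 to 0.12, the log2FC of *Slc27a1* was 0.28 (adjusted p = 0.00137) and that of *Lmf1* was 0.15 (adjusted p = 8.95e-05), so both were called higher in females. *Fabp5* lost its call there (log2FC -0.19, adjusted p = 0.0606). Relative to the median of all genes, *Slc27a1* lay at 0.16 in either scaling, *Lmf1* at 0.03 and *Lpl* at -0.60. The other 6 genes were called lower in females in every alternative that tests the genes themselves.

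The difference was not even across strains. The largest drop of 6 of the 7 genes was in AXB12/PgnJ, where *Lpl* was 1675 CPM in the female and 14440 CPM in the male library and *Vldlr* 18.1 and 156 CPM. The widest difference in the opposite direction for *Lpl*, *Cd36*, *Gpihbp1*, *Angptl4*, *Fabp4* and *Vldlr* was in NZW/LacJ, whose library labelled male went against its label in Y-linked genes. Without this strain, the 7 genes stayed lower, with *Lpl* at -0.63 and *Vldlr* at -0.77. *Fabp5* rose most in the female of BXD40/TyJ, with 663 CPM against 120 CPM in the male. The libraries at these extremes also differed in lymphocyte markers, which summed to 942 CPM in the AXB12/PgnJ female and 7.05 CPM in the male, to 613 CPM in the NZW/LacJ library labelled male and 7.76 CPM in the female, and to 707 CPM in the BXD40/TyJ male and 16.6 CPM in the female. Over the 59 strains, the female-to-male difference of the 7 genes ran against that of the summed lymphocyte markers, with r between -0.55 (*Fabp5*) and -0.82 (*Angptl4*), rho between -0.47 and -0.77 and permutation p at or below 0.00018. Without the 2 strains farthest from the median, r was between -0.51 and -0.80. With no strain left out, r was between -0.64 and -0.79 within BXD strains and between -0.51 and -0.86 within other strains. Without the 2 farthest strains, it was between -0.44 (*Gpihbp1*) and -0.70 (*Fabp4*) within BXD strains. Within other strains it was then between -0.43 (*Fabp5*) and -0.86 (*Angptl4*). *Slc27a1* (r = -0.44, rho = -0.39) and *Lmf1* (r = -0.43, rho = -0.39) followed these markers less closely, with permutation p of 0.00047 and 0.0005 for r. The points share libraries and depth.

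In the 20 strains where neither library had more than 100 CPM of these markers, the 7 differences were smaller. *Lpl* was then -0.29 (adjusted p = 0.0171), *Fabp4* -0.28 (adjusted p = 0.00601), *Gpihbp1* -0.28 (adjusted p = 0.00343) and *Vldlr* -0.44 (adjusted p = 0.000287). *Cd36* at -0.49 and *Angptl4* at -0.45 were also still called, and *Fabp5* was not (-0.24, adjusted p = 0.133). Of the 16188 genes tested in these strains, 3463 were called lower in females and 3157 higher. The part of lymphocytes in the sex difference was not tested further.

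Other cell types also differed between the sexes. Of 6 adipocyte markers, 5 were lower in females, as were 8 of 8 endothelial and 6 of 7 macrophage markers, while 9 of 9 mammary epithelial markers were higher, with a summed median of 487 CPM in females and 2.55 CPM in males. Of the 5 lymphocyte, 5 tested skeletal muscle and 5 brown adipocyte markers, 0 passed by edgeR (1 had an unadjusted p under 0.05, *Elovl3*), whereas DESeq2 called 2, 1 and 1 and limma-voom 0, 0 and 1. The mean log2 level of the 6 adipocyte markers in females differed by -0.70 from that in males (SE 0.116, lower in 49 of 59 strains), beside -0.30 to -0.74 for the 7 genes. Over the 59 strains, the female-to-male difference of *Lpl* followed that of these markers with r = 0.95, *Cd36* with r = 0.95, *Fabp4* with r = 0.92, *Vldlr* with r = 0.89, *Angptl4* with r = 0.88 and *Gpihbp1* with r = 0.85 (rho 0.80 to 0.93). All 6 had a permutation p of 1e-05, the smallest possible, and r was between 0.76 and 0.92 within BXD strains and between 0.87 and 0.97 within the others. Without the 2 strains farthest from the median, r of the 6 was between 0.79 and 0.94 over all strains. Within BXD strains it was then between 0.53 (*Angptl4*) and 0.85 (*Lpl*), and within the others between 0.78 and 0.95. The points of these correlations share libraries and depth. The relation was weaker for *Fabp5* (r = 0.56), *Slc27a1* (r = 0.35) and *Lmf1* (r = 0.34), and for the last pair r fell to 0.22 and 0.30 without the 2 strains farthest from the median.

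The adipocyte markers themselves differed unevenly between the sexes. Their log2FC was -0.12 for *Retn* (not called), -0.33 for *Adipoq*, -0.61 for *Plin1*, -0.72 for *Cidec*, -0.95 for *Plin4* and -1.32 for *Lep*. The log2FC of *Lpl*, *Cd36*, *Gpihbp1*, *Angptl4*, *Fabp4* and *Vldlr* lay below those of *Retn* and *Adipoq*. The genes were not tested against single markers. Against the markers' mean in the same library, a comparison chosen after seeing the data, none of the 9 genes was called lower in females. *Cd36* differed by 0.01 (SE 0.038, permutation p = 0.872), *Angptl4* by 0.05 (SE 0.0563, p = 0.367) and *Vldlr* by -0.06 (SE 0.0531, p = 0.283) on the log2 scale in sign permutation tests. *Lpl* was higher by 0.09 (permutation p = 0.00894), *Fabp4* by 0.16 (permutation p = 0.00157), *Gpihbp1* by 0.19 (permutation p = 0.00342) and *Fabp5* by 0.40 (permutation p = 0.00028). *Slc27a1* was higher by 0.86 and lower in only 8 of 59 strains, and *Lmf1* was higher by 0.73 and lower in 11, both at the smallest p the permutations can give, 1e-05. Against 8 endothelial markers, which themselves differed by -0.39, *Lpl*, *Cd36*, *Gpihbp1*, *Angptl4*, *Fabp4* and *Vldlr* were still lower, at -0.22, -0.30, -0.12, -0.26, -0.15 and -0.37, with permutation p between 1e-05 and 0.0381. A difference in cell content and a difference per cell cannot be told apart in these data.

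The model with strain and sex also tested the strains. In it, 5 of 9 genes differed between strains, against a background of 71.2% of all genes tested. They were *Fabp5* (adjusted p = 1.6e-05), *Slc27a1* (adjusted p = 0.000116), *Gpihbp1* (adjusted p = 0.00143), *Lmf1* (adjusted p = 0.00474) and *Vldlr* (adjusted p = 0.0222), by edgeR's F test over 59 strains. *Angptl4* (adjusted p = 0.0795), *Fabp4* (adjusted p = 0.104), *Lpl* (adjusted p = 0.127) and *Cd36* (adjusted p = 0.303) did not pass. *Fabp5* with its copies added was still called, at an adjusted p of 0.000769. In the 20 strains without lymphocyte markers over 100 CPM, *Fabp4* (adjusted p = 0.00131), *Lpl* (adjusted p = 0.009) and *Angptl4* (adjusted p = 0.0269) were called as well. Only *Cd36* was not, and over all genes 10518 of 16188 were called in these strains.

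The level in the female library of a strain followed that in the male library to unequal degrees. Pearson's r of log2 CPM over 59 strains was highest for *Slc27a1* (r = 0.50, rho = 0.48), *Fabp5* (r = 0.49, rho = 0.43) and *Gpihbp1* (r = 0.47, rho = 0.54), with permutation p of 5e-05, 0.00014 and 0.00013 for r and of 0.00017, 0.00084 and 1e-05 for rho. *Lmf1* (r = 0.37, rho = 0.33, permutation p = 0.00398) and *Vldlr* (r = 0.31, rho = 0.42, permutation p = 0.015) followed, and these 5 genes passed at an adjusted p under 0.05 over all 16862 genes, where 52.3% of all genes passed and the median r was 0.30. *Fabp4* (r = 0.28, rho = 0.30, permutation p = 0.0322), *Lpl* (r = 0.26, rho = 0.21, p = 0.0514), *Angptl4* (r = 0.23, rho = 0.29, p = 0.0797) and *Cd36* (r = 0.16, rho = 0.27, p = 0.227) did not. Leaving out the 2 strains farthest from the median of the female level gave r between 0.20 (*Lpl*) and 0.48 (*Fabp5*). Without NZW/LacJ, *Lpl* (r = 0.33), *Angptl4* (r = 0.31) and *Fabp4* (r = 0.34) passed as well, which made 8 of 9, beside 59.1% of all genes in that setting. *Fabp5* with its copies added gave r = 0.37 (permutation p = 0.00393).

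Within the 26 BXD strains r was between 0.31 (*Lpl*) and 0.64 (*Slc27a1*), and within the 33 other strains between 0.07 (*Cd36*) and 0.56 (*Fabp5*, 0.42 with its copies added). For *Slc27a1* the value among the other strains was 0.25 (permutation p = 0.158), and for *Angptl4* it was 0.08 (permutation p = 0.661) against 0.48 (permutation p = 0.014) in BXD strains. The difference between these values of r was not tested.

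**Figure D4:**
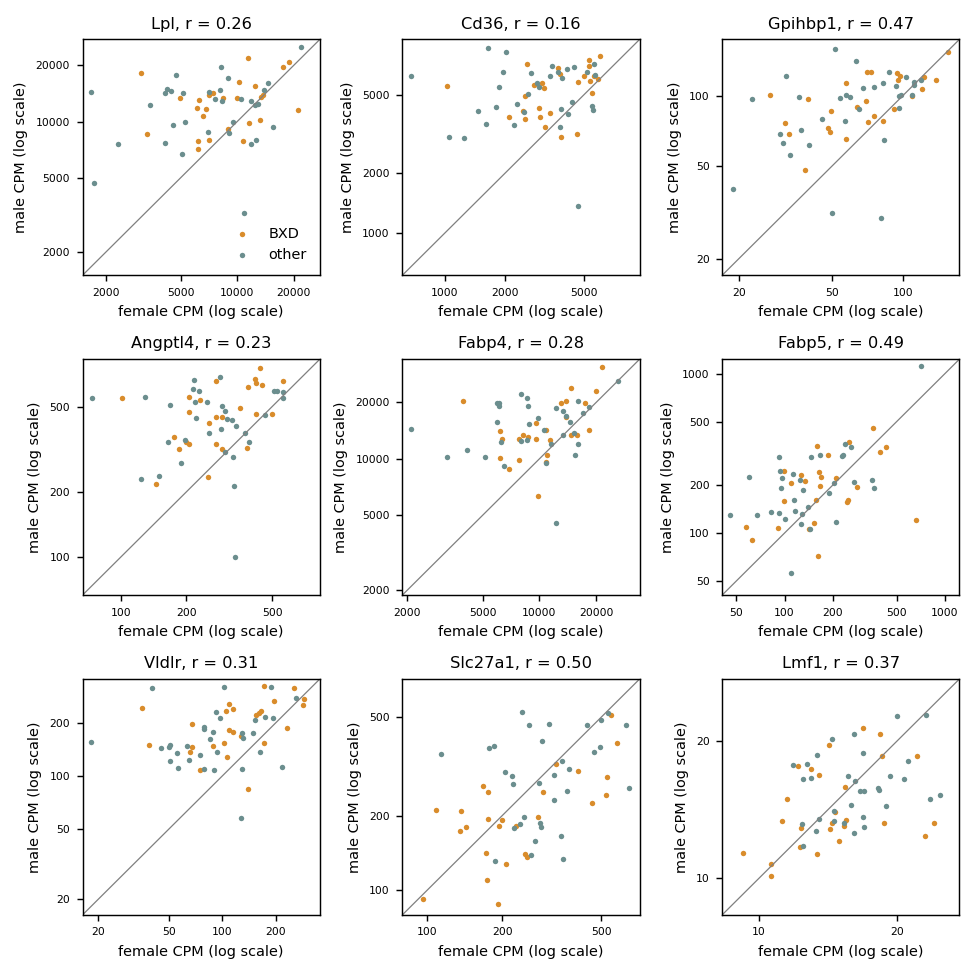
Male against female level (CPM, both axes log scale) of the 9 genes in 59 strains, BXD strains in orange and other strains in green, with the line of equal level. Most strains lie above the line for the 7 genes that were lower in females, and r between the sexes is highest for *Slc27a1* (0.50), *Fabp5* (0.49) and *Gpihbp1* (0.47).

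A few strains stood at the same end in both sexes when levels were taken in CPM. CXB11/HiAJ had the highest *Lpl* of the 59 strains in females (21826 CPM) and in males (24982 CPM), and the highest *Fabp5* in both, at 706 and 1122 CPM. Its *Fabp4* was 26116 CPM in the female and 25942 CPM in the male library, the highest and the second highest. In TPM the male library of CXB11/HiAJ was not high for *Lpl* (4403 TPM) or *Fabp4* (26040 TPM). The male medians were 5013 and 35185 TPM. Its *Fabp5*, at 790 TPM, was still the second highest of the male libraries. That library was the deepest of all, and mitochondrially encoded genes took 25.1% of its counts. BXD24/TyJ-Cep290<rd16>/J was high for *Lpl* (18858 and 20934 CPM), *Fabp4* (20028 and 23098 CPM) and *Gpihbp1* (156 and 154 CPM). At the low end, SJL/J had *Lpl* of 1730 CPM in the female and 4666 CPM in the male, the second lowest in both, and *Gpihbp1* of 18.9 and 39.9 CPM. BXD66/RwwJ was low for the pair of genes outside this pattern, *Slc27a1* (96.1 and 92.3 CPM) and *Lmf1* (9.23 and 11.4 CPM). Each of these values is 1 library.

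The sex difference was next compared between BXD and all other strains, since the BXD strains share 2 parents. In females against males, the median log2 ratio of *Lpl* was -0.39 in 26 BXD strains and -0.79 in 33 other strains, and that of *Cd36* was -0.45 and -0.88. *Angptl4* was closer, at -0.68 and -0.56. None of the 9 genes, and none of the 16765 tested (0.0%), passed the test of the interaction by edgeR, where 314 genes had an unadjusted p under 0.05, or by limma-voom, where 422 did. The interaction of *Cd36* was 0.30 (95% interval -0.11 to 0.71) and that of *Lmf1* -0.01 (-0.19 to 0.18), and differences up to these bounds lie inside the intervals.

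Families of strains were compared within each sex. In females, 0 of 9 genes differed over the 5 families, against a background of 8.73% of 20270 genes called by edgeR and 4369 genes at an unadjusted p under 0.05. Of the 9, 0 had an unadjusted p under 0.05, by edgeR or by limma-voom. In males, 1 of 9 differed, *Slc27a1* (adjusted p = 0.0205), against a background of 13.1% of 19283 genes. Its median level in males was 134.9 TPM in 34 BXD libraries, 175 TPM in 23 inbred, 217 TPM in 11 AXB/BXA, 195 TPM in 3 BXH and 239 TPM in 3 CXB libraries, and the ranges of all 5 families overlapped. In the same comparison 4 of 5 brown adipocyte and 3 of 6 skeletal muscle markers were called, and their part in the difference of *Slc27a1* was not tested. In females the same medians were 150, 239, 191, 299 and 232 TPM, BXD again lowest, without passing the test (adjusted p = 0.508).

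In the contrasts between the largest families 0 of 9 genes passed in either sex by edgeR or limma-voom. At an unadjusted p under 0.05 there was 1 each by edgeR, *Fabp5* for BXD against inbred females and *Slc27a1* for AXB/BXA against BXD males, and by limma-voom *Slc27a1* for BXD against inbred females, *Lpl* for BXD against inbred males and *Slc27a1* for AXB/BXA against BXD males. For BXD against inbred strains the backgrounds were 12.4% of genes in females (7.46% higher and 4.96% lower in BXD) and 8.63% in males (2.81% higher and 5.82% lower), and the log2FC of *Slc27a1* was -0.34 (SE 0.178, adjusted p = 0.21) and -0.31 (SE 0.158, adjusted p = 0.237). The log2FC of *Fabp5* in BXD against inbred females was 0.51 (SE 0.235, adjusted p = 0.147), and with its copies added it was 0.30 (SE 0.211, adjusted p = 0.375) and the unadjusted p was 0.158. For AXB/BXA against BXD strains the backgrounds were 2.25% in females (1.58% higher and 0.671% lower in AXB/BXA) and 2.46% in males (1.73% higher and 0.726% lower), and *Slc27a1* was 0.65 higher in males (SE 0.197, 95% interval 0.27 to 1.04, adjusted p = 0.0553) and 0.18 higher in females (SE 0.238, adjusted p = 0.729). With library totals the difference in males passed (adjusted p = 0.0302). *Lpl*, at a median of 3349 TPM in 21 inbred and 3582 TPM in 32 BXD female libraries, and at 4628 and 5447 TPM in 23 and 34 male libraries, had a log2FC of 0.36 (adjusted p = 0.289) and 0.26 (adjusted p = 0.255). *Fabp4* had 0.16 (adjusted p = 0.641) and 0.08 (adjusted p = 0.761).

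**Figure D5:**
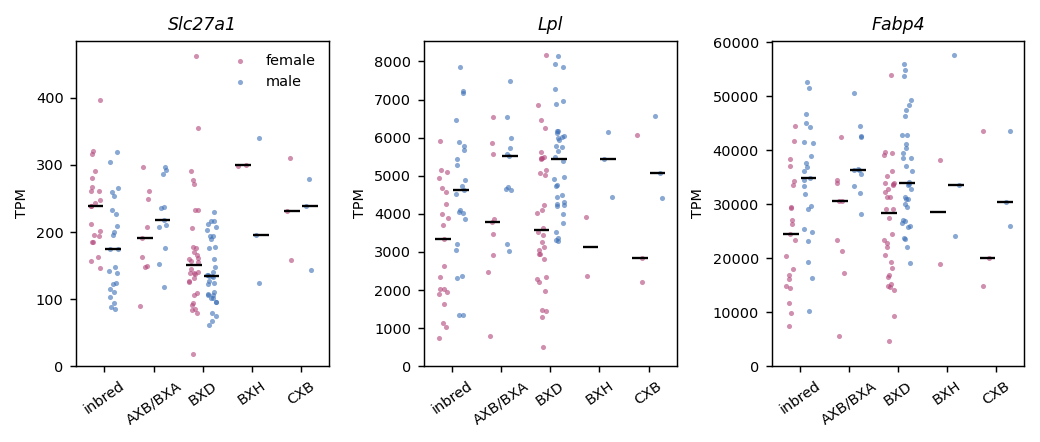
TPM of *Slc27a1*, *Lpl* and *Fabp4* in each library by strain family and sex, with the median of each group as a bar. Male BXD libraries have the lowest median of *Slc27a1* (134.9 TPM), and the families overlap for all 3 genes.

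The members did not vary as 1 group. Over the 67 female libraries, Pearson's r of log2 CPM among *Lpl*, *Cd36*, *Gpihbp1*, *Angptl4*, *Fabp4* and *Vldlr* was between 0.70 and 0.93 in the 15 pairs, highest for *Lpl* with *Fabp4*. Over the 74 male libraries it was between 0.48 and 0.82, highest for *Lpl* with *Cd36*. *Fabp5* followed *Fabp4* with r = 0.65 in females and 0.57 in males, and with its copies added with 0.69 and 0.61. *Slc27a1* and *Lmf1* formed a pair of their own, with r = 0.52 in females and 0.45 in males, and *Slc27a1* had an r with *Vldlr* of -0.03 and -0.11. These are descriptions across libraries that share scaling and tissue composition.

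The genes most like each member, by Pearson's r over the libraries of both sexes after the mean of each sex was taken away, differed in kind. *Cd36* was nearest to *Capn2* (r = 0.95), *Aplp2* (0.94) and *Serinc1* (0.93), and *Lpl* to *Mmd*, *Rtn3* and *Selenof* (0.91 each). *Fabp4* was nearest to *Pex19* (0.92), *Mpv17* (0.91) and *Mgll* (0.91), the last the monoglyceride lipase. *Gpihbp1* was nearest to *Kank3* (0.92), *Hspa12b* (0.91) and *Sema3g* (0.90). *Angptl4* was nearest to *Rtn3* (0.87), *Capn2* (0.87) and *Tmem59* (0.86), and *Vldlr* to *Vkorc1l1* (0.88), *0610010F05Rik* (0.87) and *Klhdc10* (0.87). Lower values were reached for *Fabp5*, with *Rexo2* (0.73), *Bcap31* (0.73) and *Cmpk1* (0.71), for *Slc27a1*, with *Ephx2* (0.79), the soluble epoxide hydrolase, *Pdk2* (0.75) and *1600014C10Rik* (0.74), and for *Lmf1*, with *Tmem143* (0.76), *Mrpl2* (0.74) and *Adck1* (0.73).

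Of 49 other genes of fatty acid uptake, 44 could be tested between the sexes, and 20 were lower in females, 10 higher and 14 not called. Over all genes tested, 29.8% were lower and 28.4% higher. The median log2FC of the 44 was -0.09, against 0.01 over all genes tested. Among caveolar proteins and partners of CD36, 7 of 10 were lower, *Cav1*, the coat protein of caveolae, most of all (log2FC -0.85, SE 0.127, adjusted p = 6.16e-08, 1669 against 3257 CPM). Of lipase cofactors, inhibitors and maturation factors, 8 of 14 were lower, among them the heparan sulfate proteoglycan *Hspg2* (-0.83, SE 0.107, adjusted p = 1.5e-09). In that list 2 were higher, among them *Apoc3*, by 0.86 (SE 0.312, adjusted p = 0.0156), at 0.425 and 0.241 CPM. Of the other binding proteins 3 of 5 were lower, with *Fabp7* at -0.84 (adjusted p = 2.41e-05) and under 1 CPM in both sexes.

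The other fatty acid transport proteins did not follow *Cd36*. Of 5 tested, 3 were higher in females and 0 lower, with *Slc27a2* at 0.95 (SE 0.319, adjusted p = 0.00854) and medians of 1.54 and 0.649 CPM. The lipoprotein receptor *Lsr* had the largest difference of the list, 2.50 higher in females (SE 0.148, adjusted p = 1.35e-22) at 12.1 against 2.24 CPM, and the lysophospholipid transporter *Mfsd2a* was 1.06 higher (SE 0.214, adjusted p = 2.57e-05) at 0.753 against 0.355 CPM. Mammary epithelial markers differed in the same direction, as given above, and their part in these 3 differences was not tested. Of 6 lipoprotein receptors 1 was lower and 1 higher, and of 4 acyl-CoA synthetases 1 was lower and 2 were higher.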

How the data were processed

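Stranded, paired-end mRNA libraries of mouse iWAT were quantified by the authors with kallisto 0.46.1, per the submitters' processing notes and the study's methods, against the Ensembl release 97 transcriptome of GRCm38 (mm10), and summed to genes with tximport. The authors deposited estimated counts per gene, not normalized, and TPM values per gene, which are scaled to transcript length and library and keep no depth. Of the values in the count table, 30.29% were not whole, and they were rounded before any count test. Gene symbols came from GENCODE mouse release 21, which named 35935 of 36558 identifiers. Positions are those of GRCm38.

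The 9 genes and all marker and pathway lists were chosen with earlier results of these data known. Of the other uptake genes, the 4 with the largest and the 4 with the smallest log2FC among those called were named, except 1 that is not reported here, and for each member the 3 genes of highest correlation. edgeR 4.0.16 in R 4.3.3 (TMM, filterByExpr, quasi-likelihood test, Benjamini-Hochberg over all genes tested, threshold 0.05) was fitted with strain and sex as terms to the 118 libraries of 59 strains, and with family as the term to all libraries of each sex. The model of strain and sex is that of the study, which fitted it with limma, and the model of families was added here. The pairing comes from the strain label. Deviations of the female library of a strain and of its male library correlated with a median r of 0.55 (-0.27 to 0.80), over 0.1 in 44 of 59 strains. Each strain and sex had 1 library. In the model of strain and sex, p-values therefore rest on the spread within strains left after the mean sex difference. In the model of families they rest on the spread between the strains of a family. CPM were computed with TMM, and logs of them with a prior count of 2. Correlations used 100000 permutations, two-sided, in Python 3.11.15. Alternatives used limma 3.58.1, DESeq2 1.42.0, RLE factors, library totals, other filters and log2(TPM + 1) or log2(TPM + 0.1). The scripts were tested on simulated counts with known changes. Members had at least 57 counts in every library. Fold changes on the log2(TPM + 1) scale understate those of low genes.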

Additional observations from a re-analysis of the deposited data

Results flagged for a closer look

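*Gm6166*, the processed pseudogene that matches *Fabp5*, is outside the 9 genes, and its counts were added to those of *Fabp5* in some comparisons. It had more than 3 counts, the limit that a count of 0 allows, in 96 of the 67 female and 74 male libraries. Its share of the counts of both genes was between 16.8% and 34.3% in 80 of them, as described with *Fabp5*. No library stood apart from the others of its group for any of the 9 genes in the groups of 4 to 10 samples that could be examined, the AXB/BXA females.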

How the results depend on the processing

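Of 153 values of the sex difference over the 9 genes and 17 alternatives, 5 lost and 9 gained a call and 6 changed sign, and the others kept direction and call. With library totals 2 of 9 genes were called higher in females rather than 0, with log2(TPM + 1) and log2(TPM + 0.1) also 2, and with at least 10 counts in every library 1, *Slc27a1* (adjusted p = 0.0465). Over all genes, 2774 were lower and 7410 higher with library totals, 2868 lower with log2(TPM + 1) and 2850 lower with log2(TPM + 0.1), against 4988 lower and 4759 higher in the main model. Without strains with lymphocyte markers over 100 CPM, an alternative chosen after seeing the data, 3157 genes were higher. Relative to the mean of 6 adipocyte markers, also chosen after seeing the data, 0 members were called lower and 6 higher. Those called higher were *Lpl* at 0.094, *Gpihbp1* at 0.19, *Fabp4* at 0.16, *Fabp5* at 0.40, *Slc27a1* at 0.86 and *Lmf1* at 0.73. *Cd36* at 0.0061 and *Angptl4* at 0.051 changed sign without a call. Leaving the strain out as a replicate block gave 6 members lower, with *Lpl* at -0.48 and *Vldlr* at -0.62, and ended the call of *Fabp5* (-0.23, adjusted p = 0.188), as did all libraries without the block (-0.25, adjusted p = 0.109); it changed no other call of a member. The strain difference was called for 8 members without the strains with lymphocyte markers, beside 10518 of 16188 genes. That of *Lpl* was also called with log2(TPM + 1) (adjusted p = 0.0448). The correlation of the sexes passed for 8 members without NZW/LacJ.

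Between families, BXD against inbred females had 1 member lower with log2(TPM + 1), and AXB/BXA against BXD males had 1 higher with library totals, *Slc27a1* in both. Values that changed sign were all small and without a call. For BXD against inbred strains they were, in females, *Angptl4* at -0.15 with log2(TPM + 1) and -0.014 without lymphocyte libraries, and in males, *Cd36* at -0.086 and *Lmf1* at 0.13 without lymphocyte libraries and *Fabp5* at -0.016 with its copies added. For AXB/BXA against BXD strains they were, in females, *Fabp5* at 0.048 with log2(TPM + 1) and, without lymphocyte libraries, *Lpl* at 0.0045, *Cd36* at 0.044, *Gpihbp1* at -0.0017 and *Angptl4* at 0.013, and in males, *Fabp4* at -0.039 without lymphocyte libraries and *Fabp5* at -0.062 with its copies added. The counts of all genes between families ran from 154 to 1770 in females and from 706 to 3031 in males. The cause of these changes was not tested. No replicate could be left out within a strain and sex, since each had 1 library, and depth limits *Lmf1* and *Gpihbp1* most, with as few as 121.5 and 57 counts.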

Other observations

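BXD strains come from 2 sources in the labels, TyJ and RwwJ, a split that the comparisons of families did not use. In males, *Lpl* had a mean of 16726 CPM (SD 3817, n = 12) in TyJ and 11860 CPM (SD 3461, n = 22) in RwwJ strains, and *Fabp4* had 19018 CPM (SD 5840) and 13309 CPM (SD 4080). *Slc27a1* had 261 CPM (SD 108.04) and 192 CPM (SD 75.5). In females *Lpl* had 11753 CPM (SD 6344, n = 9) in TyJ and 9098 CPM (SD 3117, n = 23) in RwwJ strains, a group that holds both libraries labelled female whose Y-linked genes went against the label, 1 from each source. These values were not tested.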
